A study of Homo sapiens with 20 samples.

Results

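In a glioblastoma cell line, the 4 arrays whose titles carry replicate number 3 were described against the 16 arrays numbered 1, 2, 4 and 5, of 20 arrays in all. Number 3 was selected on measured values: earlier results of these arrays showed low transcripts of secreted inflammatory factors in it. Its differences from the other numbers are therefore given as a description with no test. Tests were kept for the responses to treatment, which the choice did not use.

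The cells were U-87MG, an established human glioblastoma line, profiled on Affymetrix arrays after 24 h with a compound at 40 µM or with the solvent DMSO, at most 0.2% of the medium. The keto acid of tryptophan, indole-3-pyruvic acid, is called I3P, that of tyrosine, hydroxyphenylpyruvic acid, is called HPP, and that of phenylalanine, phenylpyruvic acid, is called PP. The series asks whether they activate the aryl hydrocarbon receptor (AHR), a ligand-dependent transcription factor. Each treatment had 5 arrays, numbered 1 to 5 and labelled as biological replicates, in unmodified U-87MG cells grown in serum-containing medium, so number 3 holds 1 array of each treatment. Since nothing in the labels says what arrays of a number share besides the number, culture, day of work and RNA preparation cannot be told apart, and number 3 counts as 1 replicate against 4.

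Cytokines such as IL-6 and LIF are small secreted proteins that act on neighbouring cells through receptors sharing the gp130 chain and the transcription factor STAT3. Chemokines such as CXCL8 and CCL2 attract blood cells. Their genes are classical targets of NF-kB, a transcription factor held in the cytoplasm by inhibitors such as the product of NFKBIA and released by signals such as IL-1. Glioblastoma cells in culture commonly secrete these factors without an added stimulus, and U-87MG is a known producer of IL-6 and CXCL8.

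The promoters of both cytokine-pathway genes among the markers that the RefSeq table (GRCh38.p14) held are shown because IL6 carries the NF-kB site through which the gene is classically induced. Each runs from 250 bases before to 50 bases after the gene's start. Capitals mark matches to the NF-kB (kappaB) motif, to the AP-1 motif TGANTCA and to the cAMP-response core TGACG, each searched on both strands. The IL6 window is chr7:22726950-22727249 (+ strand), and the IL1RN window is chr2:113117721-113118020 (+ strand).
IL6: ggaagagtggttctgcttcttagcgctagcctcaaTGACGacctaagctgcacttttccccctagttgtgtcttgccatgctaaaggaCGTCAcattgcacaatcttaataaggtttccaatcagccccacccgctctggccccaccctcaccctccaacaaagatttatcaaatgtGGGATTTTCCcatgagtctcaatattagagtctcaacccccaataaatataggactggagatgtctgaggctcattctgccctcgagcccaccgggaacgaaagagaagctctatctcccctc
IL1RN: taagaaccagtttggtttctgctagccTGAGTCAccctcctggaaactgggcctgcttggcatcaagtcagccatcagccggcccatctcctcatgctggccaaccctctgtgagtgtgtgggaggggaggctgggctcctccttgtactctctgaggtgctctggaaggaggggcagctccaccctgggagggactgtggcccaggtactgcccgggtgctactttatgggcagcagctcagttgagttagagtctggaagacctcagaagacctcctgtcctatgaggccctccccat
The IL6 window held 1 kappaB match (GGGATTTTCC) and 2 matches to the cAMP-response core, and the IL1RN window held 1 AP-1 match. A kappaB match was no more frequent in the lower genes than elsewhere: it was found in 12 of 132 promoters of genes counted as lower in number 3 (9.09%), in 12.9% of 9192 promoters of measured genes and in 10.8% of all 27303 promoters. An AP-1 match was found in 9.09% of the lower genes' promoters, 8.79% of the 91 higher genes' promoters and 4.53% of those of all measured genes. The cAMP-response core was found in 23.5%, 30.8% and 34.4% of the same sets. These are matches of letters in a short window, not measured binding.

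Values are log2 levels on the scale of the authors' robust multi-array average (RMA). A difference is number 3 minus the mean of the 4 other numbers within a treatment, averaged over the 4 treatments, with its SD over the treatments. A gene was counted as higher or lower where it differed by at least 1.5-fold and the number 3 array lay outside the range of the 4 other arrays in every treatment. A lack of overlap reported below for a counted gene follows largely from this rule and is no further support. Without the fold, 7.77% of all genes lay over and 6.95% under the range in every treatment. By this rule 111 of 11282 genes were higher (0.984%) and 190 were lower (1.68%), and the median difference over all genes was 0.001. No probe set had a mean under 7.943, so a gene high only in number 3 could be among those not measured. Fewer higher than lower genes, here and in the lists below, therefore carries little weight. The arrays of number 3 deviated from their treatment means together, with correlations across genes of 0.632 to 0.714 among its 6 pairs, against 0.163 to 0.591 within the other numbers. The correlations are across genes, which are not independent replicates. Number 3 held 26.2% of all squared deviations from the treatment means, number 5 held 26.0%, and numbers 1, 2 and 4 held 14.4% to 17.9%. Array medians did not set number 3 apart, at 9.254 to 9.263 against 9.23 to 9.279 over all 20 arrays.

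The 6 markers behind the choice showed the contrast in every treatment. IL6 read 7.19 under DMSO, 7.46 under I3P, 7.41 under HPP and 7.94 under PP in number 3, and 8.41, 9.18 and 9.91 (lowest, median and highest) on the 16 other arrays. The groups did not overlap, and the difference was -1.63 (SD 0.29, n = 4 treatments). LIF, a cytokine of the IL-6 family, read 8.37, 8.78, 8.73 and 8.34 in the same order, against 9.37, 10.31 and 10.94. Its difference of -1.66 (SD 0.093) was again without overlap. IL1RN encodes a secreted antagonist of the IL-1 receptor and read 7.70, 8.10, 7.85 and 7.39, against 8.87, 9.89 and 10.40, a difference of -2.02 (SD 0.22).

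FDCSP, a small secreted peptide known from follicular dendritic cells, had the largest difference downward. It read 5.57, 5.51, 6.09 and 6.46 in number 3 and 8.53, 9.12 and 9.79 elsewhere, a difference of -3.23 (SD 0.47). Its number 3 values lie at the bottom of the table, whose lowest value is 5.506, and no file says whether they exceed background, so no fold is given. FGF7, a fibroblast growth factor that acts on epithelia, read 6.17, 5.97, 7.02 and 6.47, against 7.40, 8.67 and 9.18. Its difference was -2.19 (SD 0.52), from number 3 values that are also under 7.943, the lowest mean of any probe set in the table, with the number 5 array under PP the lowest of the others. All 4 number 3 values of IL6 and 3 of those of IL1RN are under 7.943 as well. Among genes described below, so are some or all number 3 values of CCL2, IL36RN, PTGS2, THBS1, LUM, CDH11, RTN1 and SPATA18. Their differences share this limit. PODXL, a sialic acid-rich cell surface protein, went the other way, with the largest difference upward, at 11.24, 10.95, 11.05 and 11.28 against 8.57, 9.14 and 9.43. Its difference of 2.02 (SD 0.045) corresponds to 4.05-fold. In a bulk measurement, fewer cells making a transcript and less of it per cell cannot be told apart.

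**Figure D1:**
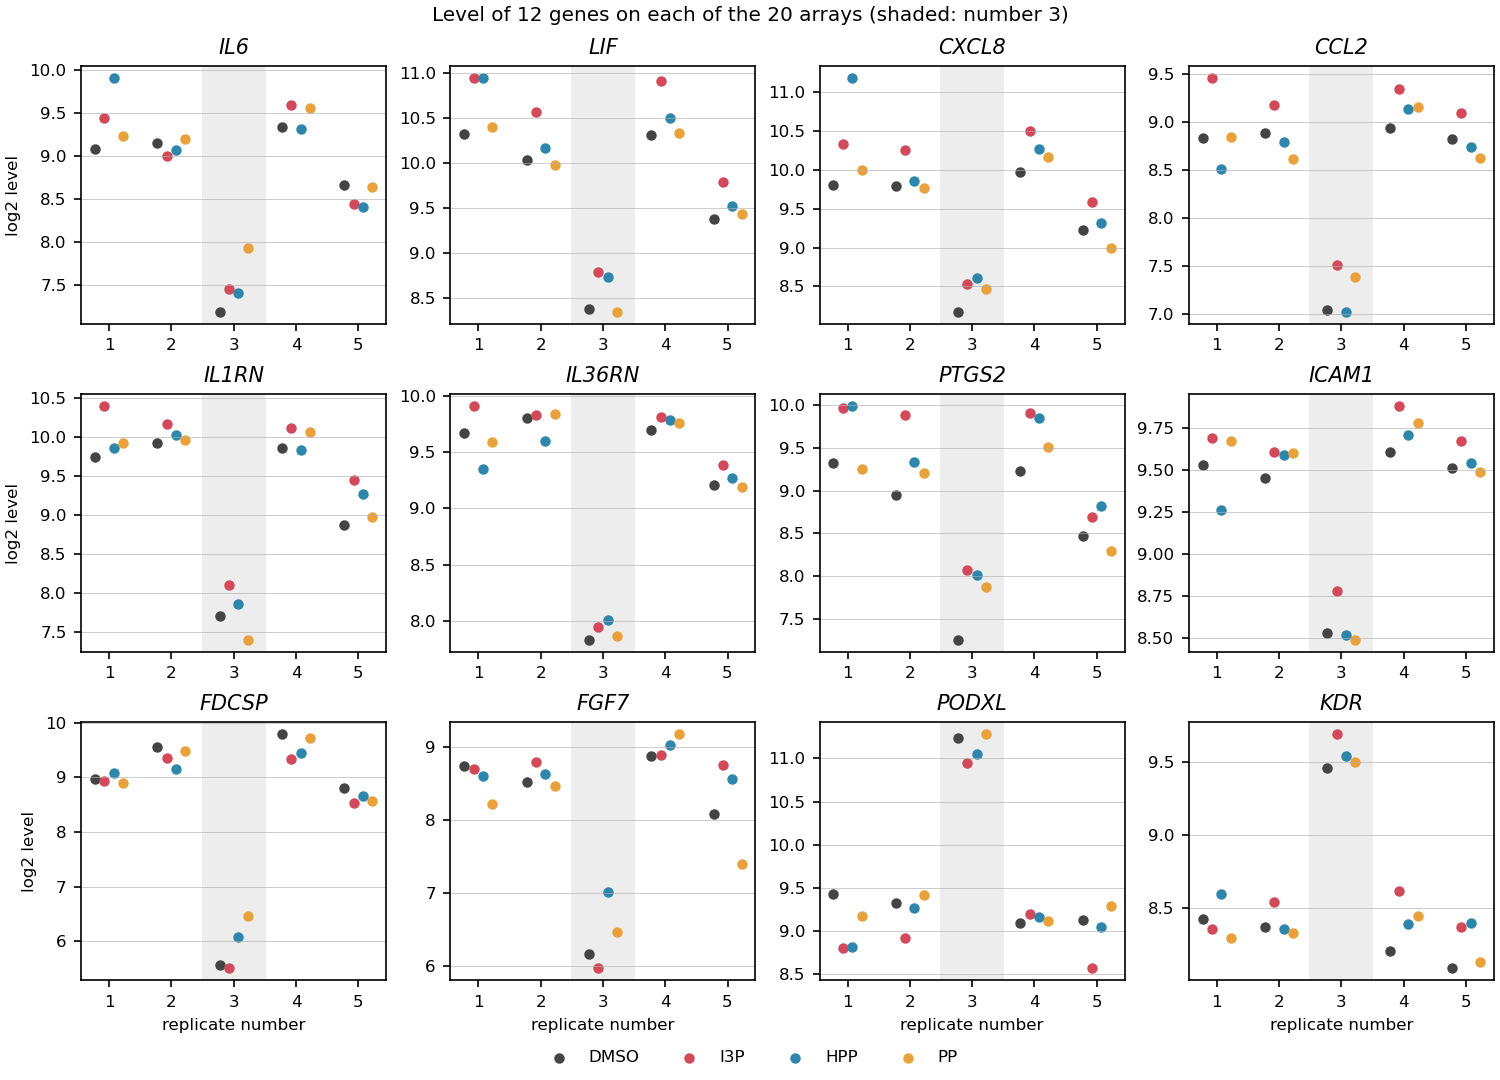
Log2 level of 12 genes (vertical axes, each with its own scale) on each of the 20 arrays by replicate number (horizontal axes), with 1 point per array coloured by treatment and number 3 shaded. The 4 points of number 3 lie apart from the 16 others in each panel, low for the 10 genes from IL6 to FGF7 and high for PODXL and KDR.

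IL6, LIF and IL1RN chose number 3, so their part in the cytokine list is no support for its label. Of 34 cytokines and chemokines listed, 14 were measured, and 6 of these were lower and 0 higher, with a median of -0.743 against 0.001 over all genes. A listed gene high only in number 3 could be among those not measured, so the absence of higher ones carries little weight. Beside those 3 the lower ones were CCL2, CXCL8 and TSLP. CXCL8, which attracts neutrophils, read 8.17, 8.53, 8.61 and 8.47, against 9.0, 9.91 and 11.18, a difference of -1.50 (SD 0.17). CCL2, which attracts monocytes, read 7.04, 7.51, 7.02 and 7.39, against 8.51, 8.87 and 9.46, a difference of -1.70 (SD 0.19). Neither gene's groups overlapped. TSLP, an epithelial alarm cytokine, had a mean of 7.706 in number 3 and 8.893 in the others, a difference of -1.19. The number 3 values of CCL2 and this mean of TSLP are under 7.943, the lowest mean of any probe set, with no measure of background.

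Several abundant or related cytokines were not counted. IL1B, the main IL-1 ligand here, averaged 10.873 in number 3 and 11.735 in the others, and CSF3, the granulocyte colony-stimulating factor, averaged 12.188 and 12.811, a difference of -0.62. IL11 (-0.02), CCL5 (0.03), CSF2 (0.01) and CXCL12 (0.02) were level, and CLCF1, another ligand of the gp130 family, was at 0.15.

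The IL-36 genes near IL1RN on chromosome 2 were low with it. IL36RN, the antagonist of the IL-36 receptor, read 7.83, 7.95, 8.01 and 7.87 in number 3, against 9.19, 9.68 and 9.91, a difference of -1.69 (SD 0.14) with no overlap. IL36B, an agonist of the same receptor, averaged 10.414 against 11.833. Of the 10 listed members of the IL-1 family 4 were measured, and all 4 were below the others. The 3 counted as lower include IL1RN, which helped to choose number 3 and is no support here. Over all 11282 genes, 1.68% were counted as lower and 5609 lay below 0. This family was looked at after its values were seen.

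Among 19 measured members of the NF-kB list 5 were lower and 0 higher, with 16 below 0 and a median of -0.319. Over all 11282 genes 1.68% were lower and 5609 lay below 0. PTGS2, the inducible cyclooxygenase of prostaglandin synthesis, read 7.25, 8.07, 8.01 and 7.87 against 8.29, 9.29 and 9.99, a difference of -1.49 (SD 0.23). ICAM1, an adhesion molecule for leukocytes, read 8.53, 8.78, 8.52 and 8.49 against 9.26, 9.60 and 9.88, a difference of -1.02 (SD 0.089). Neither overlapped with the other numbers. SOD2, the mitochondrial superoxide dismutase (-0.63), TNIP1, a ubiquitin-binding inhibitor of the pathway (-0.64), and NFKBIZ, a nuclear cofactor of NF-kB at the IL6 gene (-0.63), completed the 5. The subunit genes NFKB1 (-0.18), NFKB2 (-0.32) and RELA (-0.03) were not counted, nor was TNFAIP3, a feedback inhibitor (-0.54). NFKBIA, the feedback inhibitor that is usually among the first genes induced, was at 0.23. It lies on chromosome 14, whose genes had a median of 0.281.

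The receiving side of the pathway differed less. Of 21 measured receptor and STAT3 pathway genes 2 were lower and 0 higher, with a median of -0.133. IL13RA2, a decoy receptor for IL-13, read 10.03, 9.78, 9.87 and 9.93 against 10.33, 10.54 and 10.65, a difference of -0.62 (SD 0.090). BCL6, a transcriptional repressor, was at -0.60 (SD 0.17). The shared chain IL6ST (-0.28), the receptors LIFR (-0.13) and IL6R (0.20), STAT3 (0.00) and the STAT3 target SOCS3 (-0.30) were not counted.

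Among the 10 largest differences downward were also PI3 and MT1G. PI3, the elastase inhibitor elafin, read 9.0, 8.97, 9.23 and 9.03 in number 3 against 9.73, 10.78 and 11.17, a difference of -1.54 (SD 0.17). MT1G, a metal-binding metallothionein of the cytosol, read 6.80, 7.03, 6.09 and 6.58 against 8.26, 8.57 and 9.25, a difference of -2.04 (SD 0.45). Its number 3 values too are under 7.943, with no measure of background. MMP1, the interstitial collagenase, was at -1.23 (SD 0.098). Its 4 values of 8.93 to 9.41 overlapped with the lowest of the others, 9.34, across treatments but not within one.

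Growth factor and matrix lists were mixed. Of 21 measured growth factor ligands 3 were lower and 1 higher, with a median of 0.024. Beside FGF7, the ERBB ligands NRG1 (-0.91, SD 0.065) and HBEGF (-0.60, SD 0.039) were lower, and FGF5 was higher (0.80, SD 0.13). Of 19 growth factor receptors, KDR was the single gene counted. KDR, a receptor for VEGF, read 9.46, 9.69, 9.54 and 9.50 in number 3 and 8.09, 8.37 and 8.62 elsewhere, a difference of 1.18 (SD 0.050). SPRY4, a feedback inhibitor of receptor tyrosine kinases, was at 0.72 (SD 0.038), the single gene counted of 18 in the immediate early and ERK list.

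In the matrix list of 29 measured genes, COL1A1 was higher (0.70, SD 0.057) and THBS1 (-1.15, SD 0.27) and LUM (-0.85, SD 0.26) were lower, with a median of 0.131. THBS1, the matrix glycoprotein thrombospondin, read 7.63, 8.72, 8.50 and 7.65 against 8.75, 9.02 and 10.21. Among 18 proteases and inhibitors, PLAT, the tissue plasminogen activator, was higher (0.80, SD 0.16), and MMP1 and TIMP2 (-0.75, SD 0.17) were lower. Among 19 adhesion genes, PODXL was higher and CDH11, a mesenchymal cadherin, lower (-0.81, SD 0.26). PODXL2 (-0.14), a relative of PODXL, and EZR (0.07), which links PODXL to actin, were not counted.

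Hypoxia and glycolysis genes were lower as a group: 8 of 27 measured were lower, 0 were higher, and 26 lay below 0, with a median of -0.339. Over all 11282 genes 1.68% were lower and 5609 lay below 0. DDIT4, an inhibitor of mTORC1 induced by low oxygen, read 9.51, 9.64, 9.52 and 9.46 in number 3 and 9.85, 10.65 and 11.33 elsewhere, a difference of -1.06 (SD 0.089). NDRG1, a stress-responsive gene, read 10.64, 10.84, 10.86 and 10.65 against 11.24, 11.63 and 12.09, a difference of -0.93 (SD 0.054). Both were without overlap. ADM, a vasodilator peptide (-0.85), P4HA1, a collagen prolyl hydroxylase (-0.80), SLC2A1, a glucose transporter (-0.76), and BNIP3, a mitophagy receptor (-0.70), were also lower. The enzymes LDHA (-0.18), ENO1 (0.02) and ALDOA (-0.01) and the ligand VEGFA (-0.11) were not counted. These genes also varied among the other numbers: DDIT4 averaged 10.47, 10.89, 9.94 and 11.08 in numbers 1, 2, 4 and 5, and 9.53 in number 3.

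Cell cycle genes leaned the other way by little. None of 27 was counted, 26 were above 0, against 5673 of 11282 over all genes, and the median was 0.151. MCM6, a subunit of the replicative helicase, read 10.86, 10.66, 10.84 and 10.90 against 9.72, 10.38 and 10.69, and CCNE2, a cyclin of the start of S phase, was at 0.46 (SD 0.12). The proliferation marker MKI67 was at 0.09. No gene was counted in the lists of interferon response, cholesterol synthesis, ATF4 response, chaperones, YAP and TEAD targets or AHR targets, whose medians lay between -0.14 and 0.074. Of 14 p53 targets 2 were lower, SPATA18 (-0.90) and GDF15 (-0.73), with a median of -0.142.

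**Figure D2:**
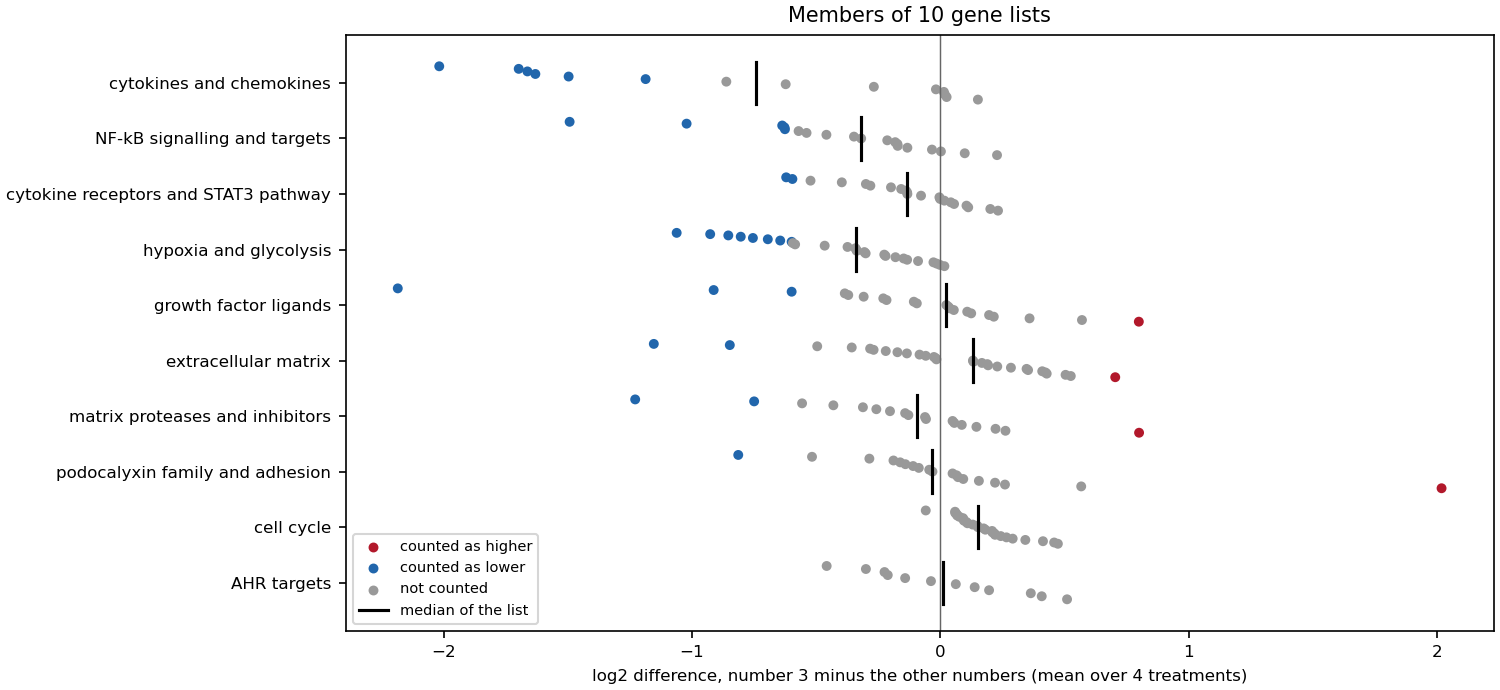
Log2 difference of number 3 from the other numbers (horizontal axis, mean over 4 treatments) for each measured member of 10 gene lists, with a bar at the median of each list. Counted members (blue lower, red higher) number 6 of 14 cytokines, 5 of 19 NF-kB genes and 8 of 27 hypoxia genes, all lower, and 0 of 27 cell cycle genes.

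Markers of other cell types were mixed. Of 8 measured glial and glioma markers 7 lay below 0 and 1 was counted as lower, SOX9 (-0.68), and the median was -0.216. GFAP, the astrocyte filament, averaged 8.37 in number 3 and 8.48 to 8.83 in the other numbers, and VIM 13.30 and 13.34 to 13.39. None of 4 blood and microglial markers and none of 5 epithelial and endothelial markers was counted, and their medians were 0.162 and 0.069. All 5 neuronal and oligodendrocyte markers measured lay below 0, with a median of -0.35, and 1 was counted as lower, MAP2 (-0.60). The part of these markers in the other differences was not tested. ITGAM, a myeloid integrin, averaged 8.42, 8.60, 9.75 and 9.59 in numbers 1, 2, 4 and 5 and 8.67 in number 3. KRT5, an epithelial keratin, averaged 9.40, 9.61, 10.28 and 10.80 in these and 9.84 in number 3, so both varied more among the other numbers than between them and number 3.

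Number 5 lay next to number 3 for most of the lower genes. Among the 190 lower genes, the number with the nearest mean was 5 for 105, 1 for 31, 4 for 29 and 2 for 25. The share over all genes was not computed. Number 5 held 26.0% of the squared deviations, nearly as much as number 3 (26.2%), so the count alone does not show likeness to number 3. Across all genes, deviations of number 3 from the treatment means had a median correlation of -0.269 with number 5. It was -0.247 with number 4, -0.132 with number 1 and -0.123 with number 2. The hypoxia gene NDRG1 averaged 10.75 in number 3, 12.06 in number 5 and 11.42 to 11.77 in numbers 1, 2 and 4. LIF averaged 8.55 in number 3, 9.53 in number 5 and 10.18 to 10.65 in numbers 1, 2 and 4. IL6 averaged 7.50, 8.54 and 9.11 to 9.45 in the same order, and PTGS2 7.80, 8.57 and 9.34 to 9.64. CCL2 and ICAM1 showed little of this order, with 8.82 and 9.55 in number 5 beside 8.87 to 9.15 and 9.54 to 9.75 in numbers 1, 2 and 4. Among the 72 higher genes of chromosomes other than 14, number 5 was the nearest for 33.

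The higher genes lay unevenly over the genome. Chromosome 14 held 39 of the 111 higher genes (35.1%) and 3.24% of all genes, and 10.7% of its 365 measured genes were higher, against 0 to 2.62% on the other 22 chromosomes. Of its genes 85.5% lay above 0, against 5673 of 11282 over all genes. On it 170 genes (46.6%) exceeded the range of the other numbers in every treatment while 3 fell under it. Over all genes these shares were 7.77% and 6.95%. The median was 0.281 (1.22-fold), with quartiles of 0.121 and 0.448, and it was 0.290, 0.254, 0.302 and 0.324 under DMSO, I3P, HPP and PP. Medians of the other chromosomes lay between -0.101 and 0.042. One gene of chromosome 14 was lower, RTN1, an endoplasmic reticulum protein of neuroendocrine cells (-0.93, SD 0.18). DNA was not measured on these arrays.

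The shift ran along all of chromosome 14. Cut into 10 stretches of 36 or 37 neighbouring genes, each had a median above 0, from 0.472 in the stretch from POTEM to MYH7 down to 0.215 in the one from DDX24 to CINP. The genes that led it act in unrelated processes. SLC7A8, a transporter of large neutral amino acids, read 10.01, 10.45, 10.18 and 9.98 in number 3, against 7.37, 8.43 and 9.08, a difference of 1.76 (SD 0.16). GALC, the lysosomal galactosylceramidase, read 9.84, 9.88, 9.81 and 9.82, against 7.90, 8.38 and 8.90, a difference of 1.41 (SD 0.085). Both were without overlap. FERMT2, an activator of integrins (0.90), GNG2, a G protein subunit (0.92), FANCM, a DNA repair helicase (0.81), and IPO4, a nuclear import receptor (0.74), were among the others.

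Parts of chromosomes 1 and 18 also moved, seen after the differences had been ordered by position. In windows of 25 neighbouring genes, the highest outside chromosome 14 ran from LAMC1 to DENND1B on chromosome 1, with a median of 0.446 and 23 of 25 genes above 0. Its median was 0.436, 0.433, 0.492 and 0.453 under DMSO, I3P, HPP and PP. IVNS1ABP, an actin-associated protein, was highest in it (0.94), and ASPM, a spindle protein, was at 0.61. PTGS2 lies inside this window and was the lowest gene in it, at -1.49. Cut into 10 stretches, chromosome 1 had medians of 0.17, 0.101 and 0.103 in stretches 8, 9 and 10. The earlier stretches had -0.017 to 0.06. The lowest window of the 23 chromosomes ran from WDR7 to SOCS6 on chromosome 18, with a median of -0.353 and 21 of 25 genes below 0. It was -0.333, -0.449, -0.355 and -0.273 in the 4 treatments. NEDD4L, a ubiquitin ligase (-0.77), and PMAIP1, a pro-apoptotic BCL2 family member (-0.71), were counted as lower in it. The first 3 of 5 stretches of chromosome 18 had medians of -0.021 to -0.001, and the last 2 had -0.218 and -0.288. On the remaining chromosomes every window lay between -0.209 and 0.16.

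**Figure D3:**
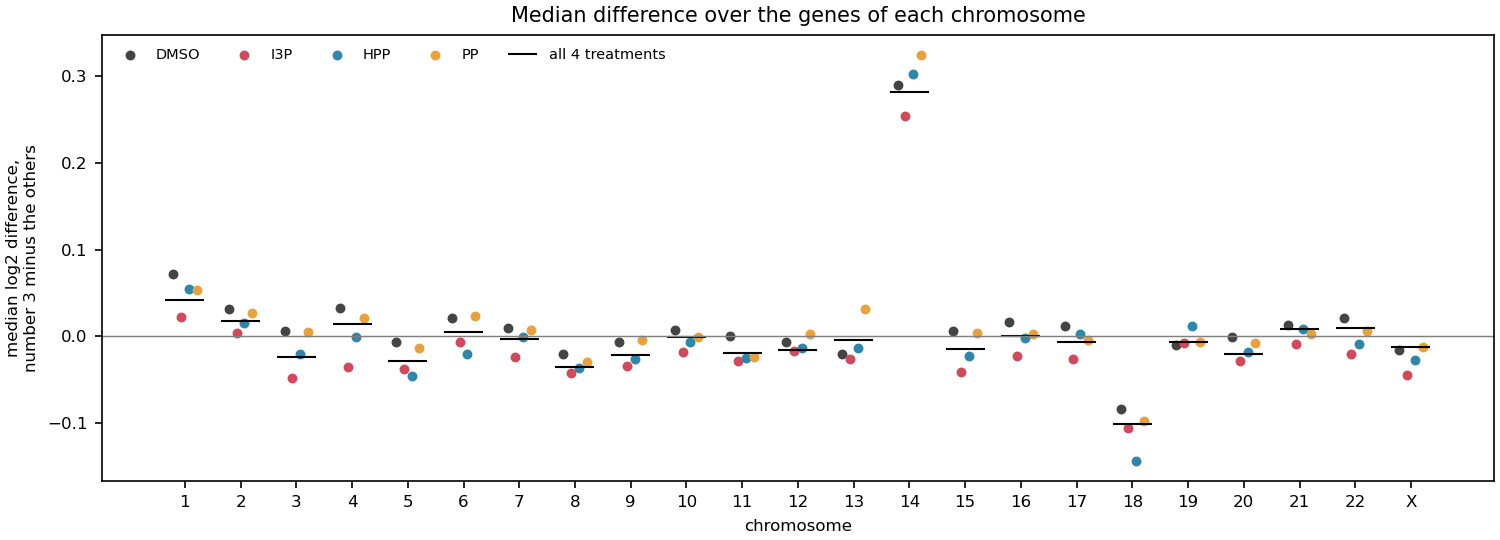
Median log2 difference of number 3 from the other numbers (vertical axis) over the measured genes of each chromosome (horizontal axis), with 1 point per treatment and a bar for all 4 treatments. Chromosome 14 stands at 0.254 to 0.324 in the 4 treatments, and the bars of the other chromosomes lie between -0.101 and 0.042.

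**Figure D4:**
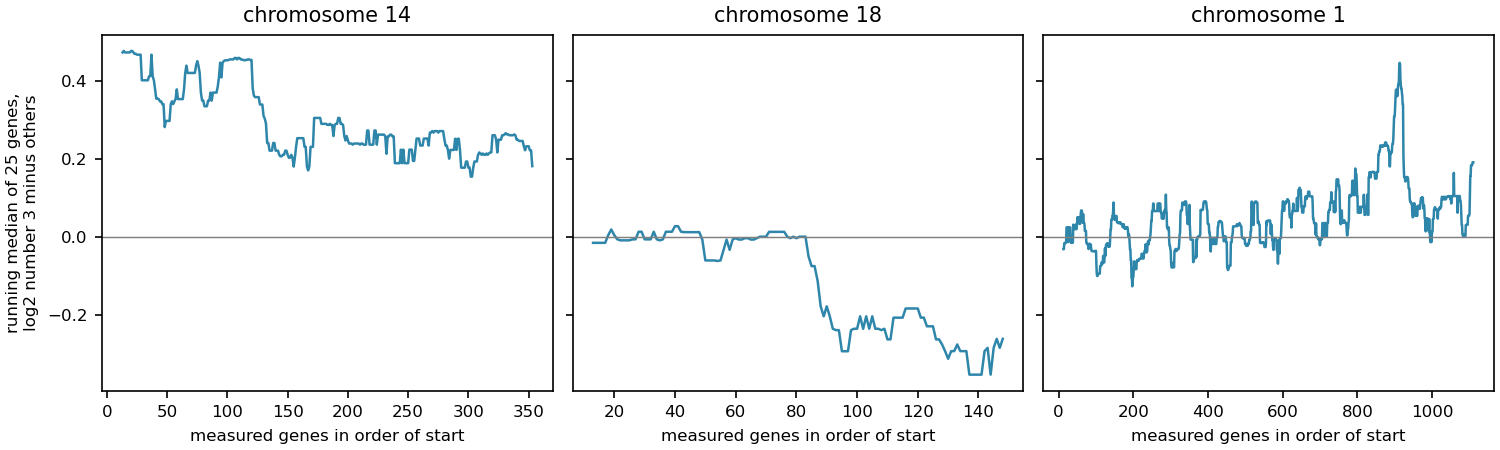
Running median over 25 neighbouring genes of the log2 difference of number 3 from the other numbers (vertical axis), along the measured genes of chromosomes 14, 18 and 1 in order of their start (horizontal axes). The line stays above 0 along all of chromosome 14, drops below 0 in the last stretches of chromosome 18 to -0.353, and peaks at 0.446 on chromosome 1.

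Of the 10 largest differences upward, 7 lay outside chromosome 14. FGF13, an intracellular FGF homologue that binds sodium channels, read 10.49, 10.06, 10.26 and 10.24 in number 3 against 8.24, 8.73 and 9.0, a difference of 1.57 (SD 0.12). PLXNA2, a semaphorin receptor, read 9.35, 9.24, 9.32 and 9.49 against 8.03, 8.27 and 8.45, a difference of 1.11 (SD 0.10). KRT75, a keratin of hair follicles, was at 1.19 (SD 0.081), and the antisense transcript NECTIN3-AS1 at 1.53 (SD 0.057), with its strand-specific detection not checked here. All 4 were without overlap.

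Whether number 3 answered the compounds differently was tested, since the choice did not use the response. With limma, number 3's response to I3P differed from that of the other numbers for 1 of 11282 genes (0.00886%) after Benjamini-Hochberg adjustment, and for 2 (0.0177%) with the replicate block. The response to HPP differed for 0 genes (0%) and that to PP for 0 genes (0%), and both counts were also 0 with the replicate block. At an unadjusted p under 0.05, limma gave 198 genes for I3P, 156 for HPP and 129 for PP, and 452, 391 and 276 with the replicate block. Each of these unadjusted counts was below the share of 0.05 expected at this threshold where no gene differs, so they show no excess. The 3 tests share the single DMSO array of number 3, and number 3 enters each with 1 treated and 1 DMSO array. The spread behind these p-values (12 residual degrees of freedom, or 9 with the replicate block) therefore comes from the other numbers, and number 3 is assumed to vary like them.

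The genes called for I3P rested on a single array. CARMN, a long noncoding RNA next to the genes of microRNAs of smooth muscle, read 13.92 under I3P in number 3 and 9.68 to 10.65 on the 19 other arrays. The difference in response was 3.35 (limma, adjusted p = 3.97e-05, and 0.000244 with the replicate block). PREX2, an exchange factor for the GTPase Rac, read 13.89 on the same array and 7.73 to 9.39 on the others. Its difference of 5.62 had an adjusted p of 0.0668 without and 6.52e-08 with the replicate block in limma. LMF1, a chaperone of lipases, differed in the same direction by 2.09, with adjusted p-values of 0.0668 and 0.126. No other array of number 3 showed these levels. For HPP and PP the smallest adjusted p with the replicate block was 0.0562 and 0.0682, with PLPP5, a lipid phosphatase, at 1.32 in both. For HPP, CGNL1, a junction protein, had the same adjusted p in limma at -1.32. PLPP5 read 9.41 on the DMSO array of number 3 and 10.41 to 10.75 on its other arrays, so both of its values rest on that DMSO array.

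The I3P response was also seen in number 3, from different starting levels. The gene lists were chosen with earlier results of these data known, so a response of listed genes in number 3 is no independent finding. Of 25 AHR target and I3P response genes measured, the response of number 3 lay inside the range of the 4 other numbers for 14. It lay below their lowest for 8 and above their highest for 3. The share over all genes was not computed, so these counts alone show neither likeness nor difference. They use signed values: for a gene that I3P lowers, a value above the range is a weaker decrease, as for ABCC9 (-0.09 against -0.74 to -0.22). All 25 confidence intervals of the difference in response, from limma with the replicate block, included 0. SLC16A6, a monocarboxylate transporter family member, started at 8.31 under DMSO in number 3 and gained 1.65, against 1.28 to 1.66 in the others. THBS1 started at 7.63 and gained 1.09, against 1.07 to 1.38. LIF gained 0.41, against 0.41 to 0.62, with a difference of -0.13 (interval -0.53 to 0.27), and PTGS2 gained 0.81, against 0.22 to 0.93. MEST, an imprinted gene, changed by -0.61, against -0.60 to -0.44.

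The classical AHR targets lay inside, below or above the range of the others. TIPARP, an ADP-ribosyltransferase that restrains AHR, gained 0.97 in number 3 and 0.75 to 1.28 in the others. AHRR, the AHR repressor, gained 0.70 against 0.63 to 0.81. CYP1B1, a cytochrome of the AHR battery, gained 0.47 against 0.67 to 1.12, and its difference of -0.40 had an interval of -0.80 to 0.01. STC2, a secreted glycoprotein, gained 0.55 against 0.72 to 0.98, a difference of -0.31 (interval -0.71 to 0.10). SERPINB2, an inhibitor of plasminogen activators, gained 0.91 against 1.10 to 1.62. These 3 were below the range of the others. So were NQO1 (-0.01 against 0.04 to 0.23), EREG (0.32 against 0.33 to 0.63) and ALDH3A1 (-0.21 against -0.17 to 0.88). ABCG2 was above it (0.52 against -0.05 to 0.3), and the remaining AHR targets measured lay inside it. None of the differences passed the test, which does not show that the responses were alike.

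**Figure D5:**
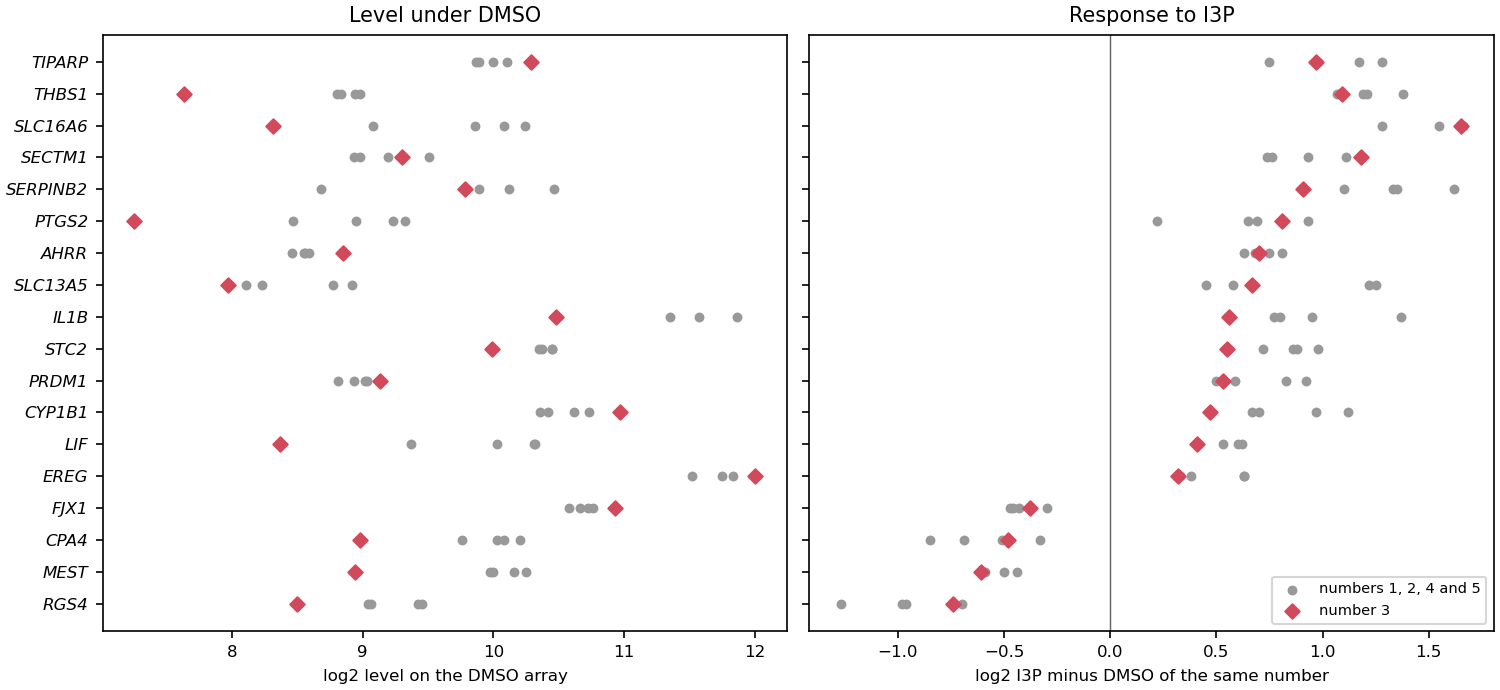
Left, log2 level on the DMSO array, and right, log2 I3P minus DMSO within a number, for 18 genes (rows), with number 3 as a red diamond and numbers 1, 2, 4 and 5 as grey points. THBS1 and LIF start low in number 3, at 7.63 and 8.37, and its responses of 1.09 and 0.41 lie within those of the others, at 1.07 to 1.38 and 0.41 to 0.62.

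Leaving out number 3 changed which genes passed the test for I3P. With all arrays and no block, limma called 9 genes for I3P against DMSO (0.0798%), and without number 3 it called 10 (0.0886%), 5 of them shared. Without the block, THBS1 passed without number 3 and not with all arrays. Its change was 1.19 with an adjusted p of 0.369 with all arrays, and 1.21 with an adjusted p of 3.76e-06 without number 3. AHRR changed by 0.71 (limma, adjusted p = 0.164) and by 0.72 (0.00181) in the same fits. CYP1B1, TIPARP, STC2, CARD10 and SNX9 were called in both. The immune protein gene SECTM1, the transcription factor gene PRDM1, LACC1 and LOXL3 passed only with all arrays, at adjusted p-values of 0.0528 to 0.084 in limma without number 3. Leaving out another number gave 0 or 1 called gene. With the replicate block, which removes each number's own level, 68 genes were called with all arrays (0.603%) and 46 without number 3 (0.408%), 42 of them shared. All 14 genes called in either fit without the block also passed in limma with the block and all arrays. There THBS1 passed at an adjusted p of 4.02e-06 and AHRR at 0.000198. For these 2 genes, whether all arrays gave a call thus depended on the block.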

How the data were processed

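RNA of U-87MG cells was measured on 20 Affymetrix arrays. The deposited log2 values were made by the authors with oligo and RMA, per the submitters' processing notes, which give no versions here. Of its 12770 probe sets, none had a mean below 7.943, so genes of low signal are outside it, and RMA can understate the change of dim genes. The 11316 probe sets with a single symbol gave 11282 genes, with the brightest probe set kept for 33 genes that had several. Symbols (833) and gene order came from RefSeq's GRCh38.p14 table, as did the promoters and their coordinates. The number of arrays limits the precision.

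Groups were taken from the titles. Interactions and I3P against DMSO were fitted with limma 3.58.1 in R 4.3.3 (2-sided, Benjamini-Hochberg over all genes, threshold 0.05), with no replicate block in the primary model, and were tested on simulated data. Figures used matplotlib 3.10.9 in Python 3.11.15. Arrays of the same number correlated in their deviations from the treatment means in all 30 pairs (0.163 to 0.714), against a median of -0.157 over 120 other pairs. The primary model left this pairing out, as the labels state none. Fits with the replicate block, which use the pairing, are therefore given beside it. Replicates are as labelled; where their cultures were not separate, p-values measure technical spread.

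The members, the 23 gene lists and the tests were chosen with earlier results of these data known. Named genes were the 6 markers, the 10 largest differences in each direction, up to 5 counted members of each list (or the 2 largest where none was counted), called genes of the interactions, and all measured AHR target and I3P response genes. Others named were chosen after their values were seen. Alternatives were a 2-fold threshold, cyclic loess, equal array medians, a level filter, the mean over probe sets, single treatments and leaving out each number.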

Additional observations from a re-analysis of the deposited data

Results flagged for a closer look

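Among the 108 genes named by rule, each treatment's 5 arrays were searched for a single array standing apart, by a gap to its nearest neighbour above 0.71 of the group's range. Chance alone flags about 1 in 20 such groups, and the genes had been chosen because number 3 differed, so flags of number 3 follow from the choice. Of 432 gene and treatment groups, number 3 stood apart in 91, in 50 genes, and another number in 9. In all 4 treatments these were the 5 genes PODXL, KDR, PLXNA2, STYX and IPO4. In 3 treatments they were the 9 genes FDCSP, SLC7A8, FGF13, ICAM1, SPRY4, THBS1, MEST, FERMT2 and RTN1. In 2 treatments they were the 8 genes FGF7, CCL2, IL13RA2, PLAT, ADM, STC2, SOX9 and ABCA3. In 1 treatment they were 28 genes: NECTIN3-AS1, KRABD1, MT1G, IL36RN, TNIP1, SOD2, NFKBIZ, FGF5, LUM, TIMP2, CRIM1, P4HA1, OAS3, HSPB1, GDF15, AHRR, HEATR5A, GNG2, ACOT2, GNPNAT1, PYGL, TRAPPC6B, CPA4, CARMN, PREX2, PLPP5, SAP30 and COL4A3.

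The response to I3P differed between number 3 and the other numbers by limma for CARMN, by 3.35 on the log2 scale, and for PREX2, by 5.62 with the replicate block. Both values rest on 1 array.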

How the results depend on the processing

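Of the values recomputed, 180 stayed within their limits, 39 moved and 0 reversed. A 2-fold threshold left 12 higher and 43 lower genes, DMSO arrays alone gave 188 and 303, and 72 higher genes lay off chromosome 14 (added after seeing the data, as were the list medians). The NF-kB median was -0.348 above the 25th percentile of level, -0.287 on DMSO arrays and -0.262 on compound arrays. On DMSO arrays the hypoxia median was -0.286, the cell cycle median 0.234 and the FDCSP difference -3.706. Leaving out 1 of the other numbers gave -0.349 to -0.283 for NF-kB, -0.398 to -0.247 for hypoxia, -0.956 to -0.601 for cytokines (the lowest without number 5) and -1.893 to -1.518 for LIF. Number 3 itself cannot be left out of its own contrast. For the response to I3P, 1 gene was called in the main test, 2 with the replicate block, 3 with a random block, 1 to 2 without another number and 2 to 3 with both; for HPP, 1 with the replicate block and without replicate 4. I3P against DMSO gave 0 to 10 genes without 1 number, 68 with the replicate block and 35 to 49 with both (46 without number 3, 37 without number 5). FDCSP and FGF7 fell below the filter at the 25th percentile of level and have no value there. The causes were not tested.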

Other observations

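Further gene families, looked at after the differences were seen and taken whole, were low in number 3 in part. Families chosen this way give no independent finding. Over all 11282 genes, 1.68% were counted as lower and 5609 lay below 0. All 6 measured metallothioneins, which bind zinc and copper, lay below the other numbers, and 3 were counted as lower: MT1G (-2.04), MT1F (-0.92) and MT1M (-0.72), while MT2A was at -0.18. Of 10 complement genes 3 were lower, the central component C3 (-1.21) and the proteases C1S (-0.99) and C1R (-0.79), and their median was -0.219. All 6 measured IGF-binding proteins lay below 0, with IGFBP1 (-1.40) and IGFBP3 (-1.32) counted as lower and IGFBP6 (-0.58) not.

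Of 9 genes of prostaglandin synthesis, PTGS2 (-1.49) and PTGES (-0.61), the inducible synthases, were lower, and PTGS1 (0.07), PTGES2 (0.03) and PLA2G4A (0.06) were not counted. PLA2G4A and PTGS2 are neighbours on chromosome 1.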
